A study of Mus musculus with 146 samples.

Results

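Sun1, Sun2, Syne1, Syne2, Spdya and Cdk2 encode proteins that hold chromosome ends at the nuclear envelope or link the nucleus to the cytoskeleton, and their transcripts were followed in single germ cells of the newborn mouse ovary. The genes were chosen by name, and 6 of 6 were found among the 52605 gene symbols listed for each cell. Cells were kept where Ddx4, a germ cell RNA helicase also called Vasa, had at least 1 TPM (transcripts-per-million, a level per transcript length), which removed 1 of 146 cells. The lowest kept cell, cell 10, had 7.49 TPM of Ddx4, and the cell left out, cell 29, had 0. That cell held 23.5 TPM of Sun1 and 29.3 of Syne1, and Spdya and Cdk2 were at 0 in it.

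The cells came from ovaries of C57/BL6J female pups of a single litter, labelled D0.5, with 5 ovaries harvested and digested together. No allele, agent or other condition was applied. Single oocytes were picked by hand under a microscope and sequenced from poly(A) RNA after oligo-dT priming, as in Smart-seq2. The cells were not tied to a pup, so all of them were 1 sample: differences between groups of cells are descriptions of this sample, with no test, and called here only where mean TPM differed by at least 1.5-fold.

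In prophase of the first meiotic division, telomeres attach to the inner nuclear membrane and are moved along it, which helps homologous chromosomes to meet. SUN proteins (Sun1, Sun2) sit in the inner membrane and bind KASH proteins in the outer membrane, such as the nesprins (Syne1, Syne2), and the pair spans the envelope as the LINC complex. The kinase Cdk2 lies at telomeres together with Spdya (Speedy A, a non-cyclin activator of Cdk2), and mice without either gene are sterile because telomeres fail to stay tethered. Oocytes around birth leave this stage and arrest at diplotene while germ cell cysts break down and primordial follicles form.

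The cells were grouped by 20 genes of oocyte development, none of them among the 6 described here. Cluster 1 held 19 cells, cluster 2 held 93 and cluster 3 held 33. From cluster 1 to 2 to 3 the mean of Sycp2, a component of the chromosome axis, was 495, 167 and 62.4 TPM, and that of Zp3, an egg coat protein, was 0.0943, 14.7 and 557 TPM. Between 4074810 and 26855273 reads were assigned to genes per cell. The median number of coding genes with a read was 9257, 9110 and 10630 in clusters 1, 2 and 3, and the median spike-in level was 10423, 12182 and 6735 TPM; their part in the values below was not tested. In every kept cell the median of 6 germ cell markers was over 1 TPM, whereas markers of pregranulosa cells were near 0, with Foxl2 at 1 TPM or more in 5 cells and the 6 markers summing to at most 81.5 TPM. Per the study's methods, libraries positive for Foxl2 by quantitative PCR were removed before sequencing, so cells with Foxl2 were selected against. Globin transcripts were more common, with Hbb-bs at 1 TPM or more in 91 cells. The blood and endothelium markers other than globin were Cdh5, Kdr and Ptprc. These reached 1 TPM in 5, 2 and 15 cells, with highest levels of 5.70, 2.79 and 3.17 TPM. The 5 stromal markers had a summed median of 4.35 TPM in cluster 1 against 0.375 and 0.451 in clusters 2 and 3, with sums from 0 to 72.2, 0 to 294 and 0 to 81.5 TPM. Among them Nr2f2 was at 1 TPM or more in 10 of 19, 36 of 93 and 6 of 33 cells.

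The libraries held 7 pairs that looked like repeats of 1 cell each, which the labels do not mention. Within these pairs the correlation of log2(CPM + 1) over 11759 coding genes (CPM, counts-per-million, are not divided by length) was 0.995 to 0.998, against at most 0.785 for every other pair of libraries. Their counts differed by 1.67 to 4.75 times the sampling variance, against at least 203 times in the next 20 pairs. All 7 pairs lay in cluster 2, and 5 of them hold cells 45, 46, 58, 62 and 63. Averaging each pair leaves 86 cells in cluster 2, and several values of cluster 2 below are followed by those with the pairs counted once. Mean levels in cluster 2 then were 23.2 TPM for Sun1, 5.28 for Sun2, 9.18 for Syne1, 189 for Syne2, 61.2 for Spdya and 58.98 for Cdk2. How near the levels of a pair were varied: Syne2 was 225 and 216 TPM in the libraries of the pair with cell 62, Cdk2 206 and 135.1 TPM in that with cell 45, and Sun2 0.0499 and 2.22 TPM in that with cell 46. With each pair counted once, the same genes passed 1.5-fold in each step between clusters, from cluster 1 to 2 with ratios of -1.26 for Sun1, -2.36 for Spdya, 1.10 for Syne1 and 5.18 for Syne2, and from 2 to 3 with -1.44 for Sun2, -5.09 for Spdya and -0.70 for Cdk2.

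The 6 genes went in different directions. Spdya was high in cluster 1 and nearly gone in cluster 3, Syne2 was nearly absent from cluster 1 and abundant in cluster 3, and the other 4 genes differed less. In cluster 1 the order by mean level per length was Spdya at 318 TPM, Cdk2 at 81.04, Sun1 at 57.2, Sun2 at 5.43, Syne2 at 4.25 and Syne1 at 3.77. In cluster 3 it was Syne2 at 235 TPM, Cdk2 at 35.9, Sun1 at 17.7, Syne1 at 8.93, Sun2 at 1.31 and Spdya at 0.820. Sun2, Syne2 and Syne1 in cluster 1 lay within each other's spread over cells, with standard deviations of 14.6, 13.2 and 9.06 TPM. Between cluster 3 and cluster 1, 4 of the 6 genes were lower and 2 were higher by at least 1.5-fold, beside 36% of 11759 coding genes that were lower and 27.4% that were higher. From cluster 1 to 2, Sun1 and Spdya were lower and Syne1 and Syne2 higher, beside 21% and 24.9% of coding genes, and from cluster 2 to 3, Sun2, Spdya and Cdk2 were lower and none of the 6 was higher, beside 30.4% and 16.7%. Several of the calls between neighbouring clusters depended on the grouping or scaling, as given gene by gene below. A large share of all coding genes passed the same line, so the count says little about these 6, and the places of Spdya and Syne2 among all genes are given with their values.

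**Figure D1:**
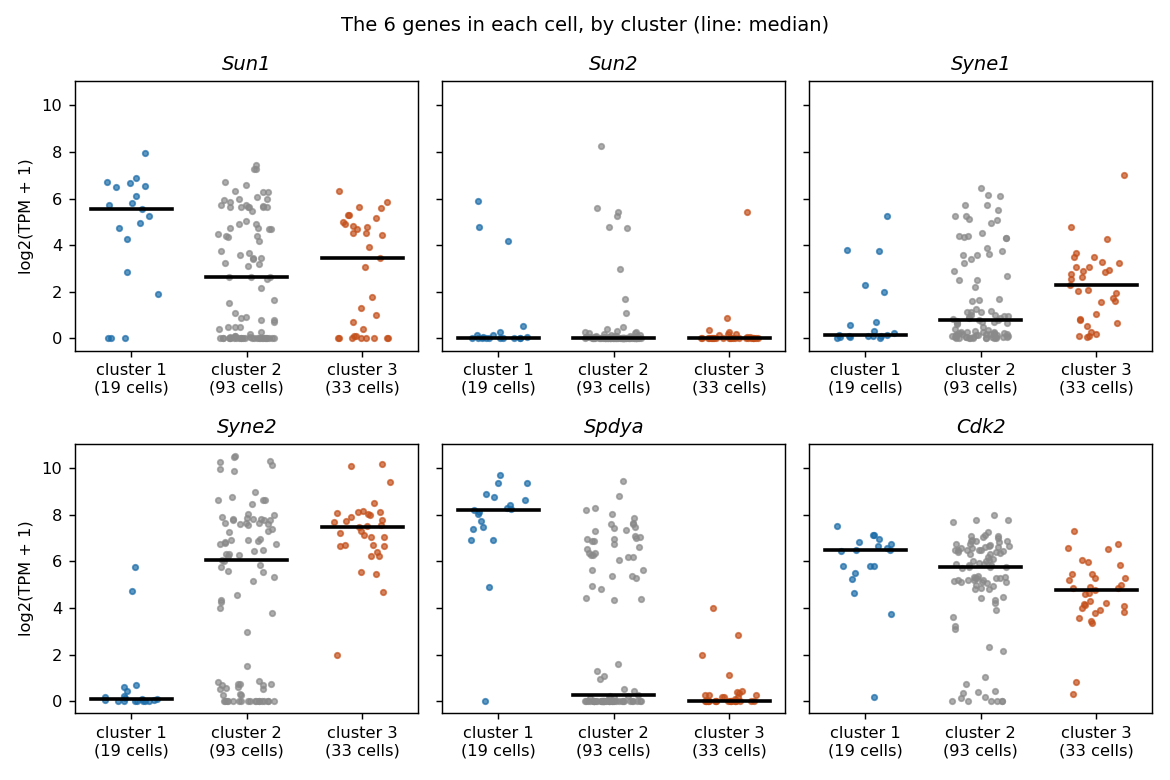
Level of each of the 6 genes, as log2(TPM + 1), in every kept cell, split into cluster 1 (19 cells), cluster 2 (93 cells) and cluster 3 (33 cells); points are cells and lines are medians. Spdya and Syne2 in cluster 2 fall into a high and a low band, and their medians go in opposite directions from cluster 1 to cluster 3.

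RefSeq sequence (GRCm38.p6) of the 250 bases before the annotated start is shown for Spdya and Syne2, which had the largest differences in opposite directions, with each CG in capitals, and for Cdk2, the partner of Spdya, with its only motif match in capitals. The start of Syne2 in RefSeq lies inside the GENCODE M21 locus given with its values below, so part of that window is within the annotated gene.
Spdya, chr17:71551811-71552060, plus strand: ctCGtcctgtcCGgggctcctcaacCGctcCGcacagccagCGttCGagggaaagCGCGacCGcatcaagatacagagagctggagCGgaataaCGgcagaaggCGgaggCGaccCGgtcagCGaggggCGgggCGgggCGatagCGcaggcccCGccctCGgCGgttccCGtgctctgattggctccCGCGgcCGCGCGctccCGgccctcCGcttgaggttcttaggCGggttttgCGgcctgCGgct
Syne2, chr12:75818068-75818317, plus strand: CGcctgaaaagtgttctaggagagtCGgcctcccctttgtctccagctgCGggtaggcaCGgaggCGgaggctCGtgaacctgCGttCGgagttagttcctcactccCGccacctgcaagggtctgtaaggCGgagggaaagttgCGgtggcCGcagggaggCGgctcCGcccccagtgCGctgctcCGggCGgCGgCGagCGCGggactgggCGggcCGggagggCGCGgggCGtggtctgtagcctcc
Cdk2, chr10:128705052-128705301, minus strand: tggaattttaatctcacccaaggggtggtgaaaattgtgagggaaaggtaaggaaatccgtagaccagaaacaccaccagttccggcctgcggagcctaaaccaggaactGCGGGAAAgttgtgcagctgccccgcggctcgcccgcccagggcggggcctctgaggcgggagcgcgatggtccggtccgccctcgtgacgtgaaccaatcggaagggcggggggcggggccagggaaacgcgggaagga
These windows held 33, 26 and 21 CG dinucleotides, against a median of 6 over 32851 RefSeq promoter windows of the same length, and their G+C content was 70.4%, 70.0% and 63.2% against a median of 52.4%. On both strands 4 motif words were searched. TTTCCCGC, found on the other strand as GCGGGAAA, was present in Cdk2 and in 0.895% of all windows. CACGTG, the palindromic NRF1 motif and TGACGTCA, present in 6.02%, 0.782% and 1.55% of all windows, were in none of the windows of the 6 genes. A match describes the letters and not a bound site.

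Spdya (chr17:71552061-71589533, plus strand, GRCm38) had the largest difference between clusters of the 6 genes. In cluster 1 its level ran from 0 to 834 TPM with a median of 297, and 18 of 19 cells had at least 10 TPM. In cluster 2 it ran from 0 to 702 TPM with a median of 0.212. In cluster 3 the highest cell had 14.8 TPM, the median was 0, and 4 of 33 cells reached 1 TPM. Apart from 1 cell of cluster 1 at 0, every cell of cluster 1 was above every cell of cluster 3. The mean was 318, 59.02 and 0.820 TPM in clusters 1, 2 and 3, and the log2 ratio of means (1 TPM added to each) was -2.41 for cluster 2 over 1, -5.04 for 3 over 2 and -7.45 for 3 over 1. As a difference of median log2(TPM + 1), the 2 over 1 value was -7.94 and the 3 over 2 value was -0.28, which did not pass 1.5-fold, since the median of cluster 2 was already near 0. The cluster 3 over 1 value was the 4th lowest of the 11759 coding genes and the 3 over 2 value the 3rd lowest.

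Cluster 2 was split for Spdya: 40 of its 93 cells had at least 10 TPM, 50 had less than 1 TPM and only 3 lay between. With the repeat libraries counted once, 36 of 86 cells had at least 10 TPM, 47 had less than 1 TPM and 3 lay between. Along the order of cells given by the first component of the same 20 genes, cut into 5 bins of 29 cells, mean Spdya was 242, 100.7, 47.04, 7.73 and 0.813 TPM. The bins' shares of cells at 1 TPM or more were 89.7%, 62.1%, 48.3%, 13.8% and 10.3%. The mean of the fourth bin was 1.67 TPM without its highest cell, which alone had 178 TPM. That of the last bin was 0.315 TPM without its highest cell, at 14.8 TPM. Spearman's correlation of Spdya with the order was -0.59 over the kept cells, and with the number of reads 0.05. The cells are 1 sample, and the correlation is given as a description. Spdya overlaps Trmt61b on the other strand and Mettl4-ps1 on its own, and reads of overlapping stretches cannot be told apart in libraries without strand. Trmt61b and Mettl4-ps1 averaged 4.80 and 3.19 TPM over the cells.

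Cdk2 (chr10:128697939-128705031, minus strand), the kinase that Spdya activates, was present throughout. At least 1 TPM was found in 18 of 19, 81 of 93 and 31 of 33 cells. Its level ran from 0.130 to 180 TPM in cluster 1, from 0 to 250 in cluster 2 and from 0.237 to 156 in cluster 3, with medians of 87.8, 53.4 and 26.5, so the groups overlapped widely. Its mean was 81.04, 62.3 and 35.9 TPM, and the log2 ratio of means was -0.37 for cluster 2 over 1, -0.78 for 3 over 2 and -1.15 for 3 over 1. Scaled to the spike-in RNA added to each cell, the 3 over 1 ratio was -0.51 and did not pass 1.5-fold. The 3 over 2 ratio did not pass it in CPM (-0.41), per spike-in TPM (-0.15), as a difference of mean log2(TPM + 1) (-0.40) or with the order cut into 3 equal groups (-0.54). The 2 over 1 ratio passed it as a difference of mean (-0.84) and of median (-0.71) log2(TPM + 1) and with 3 equal groups (-0.61). In the 5 bins the mean went 86.4, 73.4, 57.9, 42.1 and 34.02 TPM, lower in each bin than in the one before, as it was with the repeat libraries counted once. With 10 bins the fall was not steady: the first 3 had means of 82.3, 90.3 and 95.96 TPM, and the third was highest. Of the 6 genes Cdk2 had the highest Spearman's correlation with the summed stromal markers, 0.25 over the kept cells, and their part in its values was not tested. Cdk2 shares its locus with Pmel on the other strand, which averaged 4.82 TPM.

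The balance of the kinase and its activator differed between clusters. Spdya exceeded Cdk2 in TPM in 16 of 19 cells of cluster 1, 27 of 93 of cluster 2 (26 of 86 with the repeat libraries counted once) and 1 of 33 of cluster 3. The median log2 ratio of Spdya over Cdk2 per cell was 1.44, -1.69 and -4.28. Of the 65 cells with at least 1 TPM of Spdya, 61 also had at least 1 TPM of Cdk2, and 69 of the other 80 cells did. Spearman's correlation between both genes was 0.21 over all cells and 0.11 within cluster 2.

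Sun1 (chr5:139200637-139249840, plus strand), the SUN protein that binds telomeres through its meiotic partners, was the main SUN gene of these cells. It ran from 0 to 244 TPM in cluster 1, from 0 to 172 in cluster 2 and from 0 to 79.9 in cluster 3, with medians of 46.2, 5.13 and 9.91 TPM. At least 10 TPM was found in 14 of 19, 38 of 93 and 16 of 33 cells, and all 3 clusters overlapped. Mean Sun1 was 57.2, 22.7 and 17.7 TPM, giving log2 ratios of -1.29 for cluster 2 over 1, -0.35 for 3 over 2 and -1.64 for 3 over 1. The step from cluster 2 to 3 had no stable direction: the medians went up, by 0.83 on the log2(TPM + 1) scale, and the ratio scaled to spike-ins was 0.76. Along the order the bin medians were 29.6, 19.8, 0.393, 0.151 and 14.4 TPM, lowest in the third bin and the fourth, where 13 and 12 of 29 cells had at least 1 TPM, and 18 of 29 in the last. In the order taken from 1997 variable genes the third bin had a median of 5.13 TPM, with 16 of 29 cells at 1 TPM or more. The fourth bin was lowest there, at 0.333 TPM. Spearman's correlation of Sun1 with the summed blood and endothelium markers, whose high values came from globin, was 0.25 over the kept cells. The part of these markers in the Sun1 values was not tested.

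Sun2 (chr15:79724070-79742536, minus strand), the SUN gene common in somatic cells, was scarce. Only 13 cells had at least 1 TPM, the median was 0 in all 3 clusters, and 86 cells were listed at 0. With the repeat libraries counted once, 12 cells had at least 1 TPM and 81 were listed at 0. Sun1 exceeded Sun2 in 71.03% of the cells and Sun2 exceeded Sun1 in 20 cells. Cluster means of 5.43, 5.31 and 1.31 TPM rested on few cells: cell 76 of cluster 2 had 303 TPM, cell 100 of cluster 1 had 58.1 and cell 84 of cluster 3 had 41.3. The level of cell 76 came from 357 reads over an effective length of 189 bases (worked out from reads and TPM as described for the nesprins below; the shortest annotated Sun2 transcript has 234 bases), against 1434 bases in cell 84. In CPM cell 76 had 51.4, below 62.6 in cell 84 and 68.8 in the highest cell, also of cluster 2. The log2 ratio of cluster 3 over 1 was -1.48, with values from -2.60 without cell 84 to -0.60 without cell 100, and from CPM it was -0.16. For cluster 2 over 1 the ratio was -0.02, and over single cells left out it went from -1.06 without cell 76 to 0.85 without cell 100. With clusters from variable genes it was -2.33, and the 3 over 2 ratio was 0.090. For cluster 3 over 2 it was -1.45, which rested on cell 76: without that cell it was -0.41, and without cell 84 it was -2.57. That step did not pass 1.5-fold either in CPM (-0.45) or as a difference of mean log2(TPM + 1) (-0.23).

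Some cells rich in Sun2 also held transcripts of other cell types. Cell 76 had 216 TPM of Col1a1 and 75.8 TPM of Dcn, stromal genes that reached 1 TPM in 13 and 10 cells, and was the highest cell for both. The 5 stromal markers summed to 294 TPM there against a median of 0.478, with Pdgfra and Tcf21 at 0. Germ cell markers were present in that cell as well, with Ddx4 at 134.8 and Sycp3 at 2700 TPM. Spearman's correlation of Sun2 with the summed blood and endothelium markers was 0.34 over the kept cells, the highest of the 6 genes. High values of that sum came from globin. The sum ran from 1.36 to 165066 TPM in cluster 1, from 0 to 27071 in cluster 2 and from 0 to 21394 in cluster 3. Another cell of cluster 1, with 26.8 TPM of Sun2 from 18 reads, held 165066 TPM of Hba-a1 and Hbb-bs together. Their part in the Sun2 values was not tested. Sun1 and Sun2 each overlap an antisense gene, 4930520M14Rik and Gm16575, whose reads could be counted with theirs where both share sequence.

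Syne2 (chr12:75818134-76110926, plus strand), which encodes nesprin-2, had the opposite pattern to Spdya. In cluster 1 it ran from 0 to 53.1 TPM with a median of 0.0524, and 2 of 19 cells had at least 1 TPM. In cluster 2 it ran from 0 to 1461 TPM with a median of 65.2. In cluster 3 all 33 cells had at least 1 TPM, from 2.99 to 1151 with a median of 174, and 32 of them had more than 10 TPM. The highest cell of cluster 1, at 53.1 TPM, and cell 50 at 25.5 TPM were the cells of cluster 1 that reached into the range of cluster 3. The mean was 4.25, 179 and 235 TPM, and the log2 ratio of means was 5.10 for cluster 2 over 1, 0.39 for 3 over 2 and 5.49 for 3 over 1. Without that highest cell the last value was 6.54. The sizes depended on the grouping: with clusters from variable genes the 2 over 1 and 3 over 1 ratios were 2.49 and 3.49, and with the order cut into 3 equal groups 3.92 and 4.45. The 3 over 2 ratio passed 1.5-fold in 6 of 15 alternatives, at 0.99 with Ward clusters, 1.01 with clusters from variable genes, 1.11 with 5 components, 1.28 per spike-in TPM, and 2.50 and 1.40 as differences of mean and median log2(TPM + 1). Among 11759 coding genes the 2 over 1 value was the 13th highest and the 3 over 1 value the 46th highest.

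Cluster 2 was split for Syne2 too: 59 of its 93 cells had at least 10 TPM, 32 had less than 1 TPM and 2 lay between, or 56, 28 and 2 of 86 with the repeat libraries counted once. Bin means along the order were 4.71, 69.7, 140.6, 472 and 157 TPM, with medians of 0.0524, 1.85, 77.3, 221 and 149 TPM. Of the cells in the fourth bin, 25 belonged to cluster 2 and 4 to cluster 3. In the last bin, made up of 29 cells of cluster 3, no cell was above 359 TPM. With the repeat libraries counted once the bin means were 5.02, 72.6, 203, 434 and 155 TPM. The lower level of the last bin was not seen in the order taken from 1997 variable genes, where the fourth bin and the last had means of 338 and 327 TPM and medians of 191 and 208 TPM. Spearman's correlation of Syne2 with the order was 0.65, and with the number of reads 0.06.

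Syne1 (chr10:5020917-5551482, minus strand), which encodes nesprin-1, was low per length. It ran from 0 to 37.6 TPM in cluster 1, from 0 to 85.7 in cluster 2 and from 0.0572 to 126.4 in cluster 3, with medians of 0.123, 0.737 and 3.85 TPM. At least 1 TPM was found in 5 of 19, 38 of 93 and 24 of 33 cells. Mean Syne1 was 3.77, 8.54 and 8.93 TPM, with log2 ratios of 1.00 for cluster 2 over 1, 0.06 for 3 over 2 and 1.06 for 3 over 1. The 2 over 1 ratio did not pass 1.5-fold with Ward clusters (0.51), 3 equal groups of the order (0.40) or 5 components (0.23), and the 3 over 2 ratio passed it with 3 equal groups (0.84), with 5 components (1.00) and as a difference of medians (1.48). Without cell 53 the 3 over 2 ratio was -0.61, past 1.5-fold in the other direction, and the 3 over 1 ratio was 0.39. The 3 over 1 ratio was 1.78 without the highest cell of cluster 1, at 37.6 TPM. Cell 53, at 126.4 TPM, also had 81.5 TPM of the stromal marker Nr2f2, with Col1a1, Dcn, Pdgfra and Tcf21 at 0 there, and its part was not tested. As for Syne2, the fourth bin was highest, at 22.8 TPM (19.1 without cell 53) against 5.96, 2.31, 3.77 and 5.19 TPM in the others. Without their highest cells, the second bin and the third had means of 1.22 and 2.03 TPM.

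**Figure D2:**
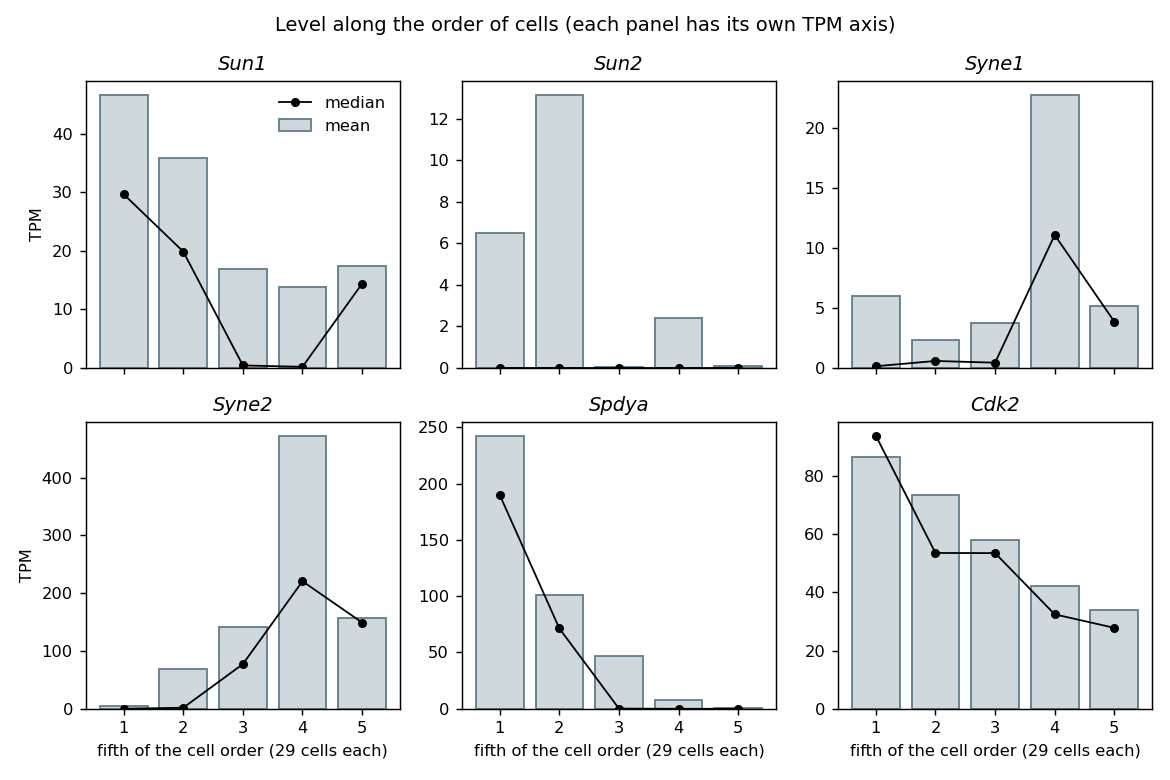
Mean (bars) and median (points and line) TPM of the 6 genes in 5 bins of 29 cells along the order of cells, with a separate axis for each gene. Spdya and Cdk2 are highest in the first bin, and Syne1 and Syne2 are highest in the fourth, with Syne2 at a mean of 472 TPM.

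Syne2 exceeded Syne1 in TPM in 3 of 19 cells of cluster 1, 70 of 93 of cluster 2 (66 of 86 with the repeat libraries counted once) and 32 of 33 of cluster 3. In cluster 1 both were near 0, with medians of 0.123 for Syne1 and 0.0524 for Syne2, and mean Syne2 (4.25 TPM) was above mean Syne1 (3.77 TPM). Spearman's correlation between both genes was 0.38 over the kept cells, and 0.50, 0.31 and 0.20 within clusters 1, 2 and 3. Cells with at least 1 TPM of Syne1 had at least 1 TPM of Syne2 in 54 of 67 cases.

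The 2 nesprin genes also differed in the estimated length behind these levels. Both have giant forms, with the longest annotated transcript at 27908 bases for Syne1 and 21704 for Syne2, and shorter ones. The shortest annotated transcript has 2726 bases for Syne1 and 440 for Syne2. Reads can thus be assigned to shorter models for Syne2 than for Syne1, and the part of this in the lengths was not tested. The effective length behind a gene's TPM in each cell was worked out from its reads and TPM, scaled by the spike-ins. For Syne1 its median over cells with at least 1 TPM was 3778 bases in cluster 1 (5 cells), 8004 in cluster 2 (38 cells) and 18752 in cluster 3 (24 cells). Lengths over 10000 bases were found in 0 of 5, 18 of 38 and 19 of 24 cells. At a minimum of 10 TPM the medians were 7437 bases (3 cells), 6852 (22 cells) and 14042 (6 cells), so the order of clusters 1 and 2 turned, and 13 of 31 cells exceeded 10000 bases. For Syne2 the medians were 2029 bases (2 cells), 3591 (61 cells) and 4034 (33 cells), and 2 of 96 cells exceeded 10000 bases. The lowest length was 193 bases for both genes, under the shortest annotated Syne1 transcript of 2726 bases. In 13 of 67 cells the Syne1 value, and in 1 of 96 the Syne2 value, was above the longest annotated transcript, so the scale is approximate at both ends. The medians over the cells with at least 1 TPM were 2458 bases for Sun1 (88 cells), 870 for Spdya (65 cells) and 1966 for Cdk2 (130 cells). These are estimates that share the reads with the levels, and priming from the poly(A) tail favours the 3' ends of long RNAs.

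**Figure D3:**
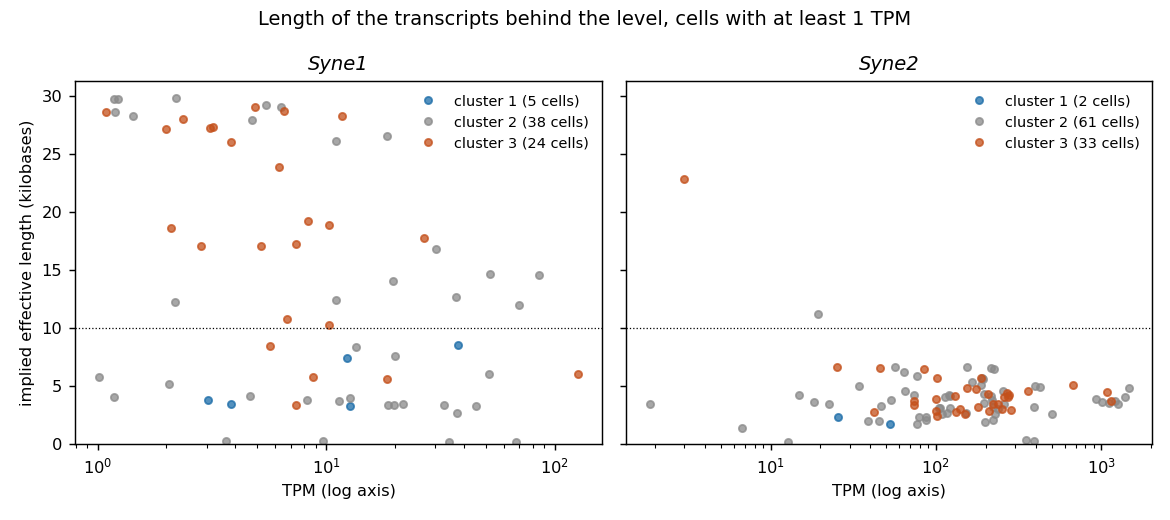
Effective length in kilobases behind the level of Syne1 and Syne2 against TPM (log axis) in each cell with at least 1 TPM; points are cells, coloured by cluster, and the dotted line is at 10 kilobases. For Syne1, 37 of 67 cells lie above the line, and for Syne2, 2 of 96 do.

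In CPM, mean Syne2 was 7.22, 651 and 932 and mean Syne1 was 21.7, 77.95 and 103.04 in clusters 1, 2 and 3. Mean Spdya was 229, 43.5 and 0.728 CPM, mean Sun1 118.9, 44.1 and 41.4, and mean Cdk2 126.5, 98.5 and 74.1. The directions from cluster 1 to cluster 3 were those of the TPM values for these 5 genes.

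Spdya was detected in 94.7% (exact 95% binomial interval 73.97 to 99.9) of cluster 1, 55.9% (45.2 to 66.2) of cluster 2 and 39.4% (22.9 to 57.9) of cluster 3. Syne2 was detected in 36.8% (16.3 to 61.6), 80.6% (71.1 to 88.1) and 100% (89.4 to 100). After each cell was thinned to 500000 reads, the shares with at least 1 read were 94.7%, 46.2% and 9.09% for Spdya and 21.1%, 68.8% and 100% for Syne2. Sun2 was detected in 36.8%, 18.3% and 18.2% of the cells before thinning and in 10.5%, 12.9% and 9.09% after it, and Sun1 in 84.2%, 67.7% and 69.7% before and 84.2%, 60.2% and 63.6% after. With the repeat libraries counted once, Spdya was detected in 55.8% and Syne2 in 83.7% of cluster 2. The intervals cover counting error only. They take every library as a separate cell, so those of cluster 2 include the repeat libraries.

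**Figure D4:**
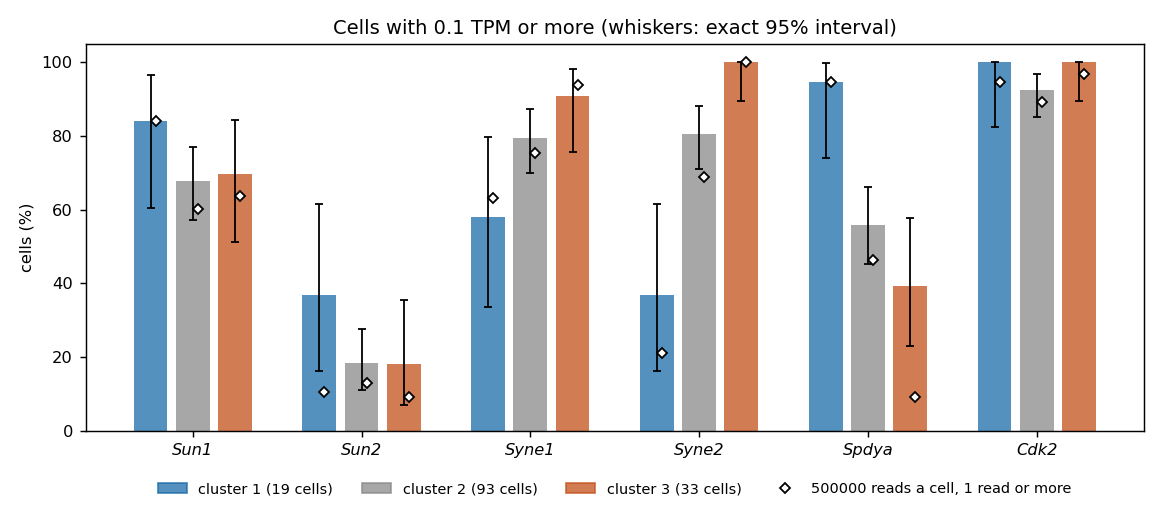
Percent of cells of each cluster with at least 0.1 TPM of each gene (bars, with exact 95% binomial intervals) and with at least 1 read after thinning to 500000 reads (diamonds). Syne2 goes from 36.8% to 100% and Spdya from 94.7% to 39.4% between clusters 1 and 3, and the thinned share of Spdya in cluster 3 is 9.09%.

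Although Spdya and Syne2 went opposite ways between clusters, they were not mutually exclusive in cells. In cluster 2, Spdya was at 1 TPM or more in 28 of the 61 cells with Syne2 at 1 TPM or more (45.9%) and in 15 of the 32 cells without (46.9%). With the repeat libraries counted once it was in 25 of 58 and 14 of 28 cells. Spearman's correlation between both genes was -0.27 over the kept cells and -0.05 within cluster 2, or -0.31 and -0.10 with the repeat libraries counted once. Over the 15 pairs of the 6 genes, the lowest correlation was -0.37, between Syne2 and Cdk2, and the highest 0.38, between Syne1 and Syne2. No cell had all 6 genes at 1 TPM or more, and none had all 6 below it. The most frequent set in cluster 1 was Sun1, Spdya and Cdk2 without the nesprins and Sun2, in 7 of 19 cells, a set found in 6 cells of cluster 2 and in 0 of cluster 3. In cluster 3 the sets Sun1, Syne1, Syne2 and Cdk2, and Syne1, Syne2 and Cdk2, each held 9 of 33 cells, and neither was found in cluster 1.

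The genes around the 6 were taken from 6 lists of 62 genes, of which 60 were found and 52 were compared. Between cluster 3 and cluster 1, 20 were higher and 20 lower by at least 1.5-fold (38.5% each, beside 27.4% and 36% of all coding genes), with a median log2 ratio of -0.15 against -0.17 over all coding genes. Scaled to spike-ins, which moved the median of all genes to 0.44, 27 were higher and 9 lower. The share of all coding genes called under that scaling is not given here, so these counts are not read as a result about the lists. Of the genes that attach telomeres, Terb1, which joins Sun1 to the telomere and is named Ccdc79 in the data, had means of 71.5, 40.99 and 20.03 TPM, a log2 ratio of -1.79 for cluster 3 over 1. Its partners Terb2 and Majin were not analysed here. Among 7 shelterin genes, which cap the telomere, 1 was higher and 1 lower (14.3% each, beside 27.4% and 36%): Terf2 went from 8.09 to 14.2 TPM and Pot1a from 58.98 to 18.9, while Tinf2 was at 168, 162 and 161 TPM.

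Of the other KASH and SUN genes, Kash5 (Ccdc155 in the data), the meiotic KASH protein that recruits dynein, averaged 13.1, 5.43 and 8.98 TPM, with a log2 ratio of -0.49 for cluster 3 over 1. It was at 1 TPM or more in 67 cells, as many as Syne1, and its mean in cluster 1 was above those of Syne1, Syne2 and Sun2 there. Sun3, Syne3, Syne4 and Irag2 averaged under 1 TPM over the cells, Spag4 averaged 1.86, 3.53 and 1.65 TPM by cluster, and Sun5 was listed at 0 in every cell. The Spag4 means rested on few cells: it was at 1 TPM or more in 2 of 19, 13 of 93 and 5 of 33. Its highest cells had 31.6, 88.6 and 21.9 TPM. Among 13 genes of the lamina and inner membrane, 8 were higher and 5 lower between cluster 3 and cluster 1 (61.5% and 38.5%, beside 27.4% and 36% of all coding genes), with a median log2 ratio of 0.66. Lmna, which encodes A-type lamins, had means of 10.7, 20.9 and 71.9 TPM. It was at 1 TPM or more in 11 of 19, 45 of 93 and 33 of 33 cells. Its medians were 3.08, 0.548 and 64.6 TPM, and the highest cell of cluster 2 had 551 TPM. No direction is therefore read for Lmna from cluster 1 to 2. Lbr, the lamin B receptor, had means of 79.5, 80.1 and 28.01 TPM, and Banf1, a chromatin-bridging protein of the envelope, 361, 729 and 782 TPM.

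Of 13 genes of dynein, the motor that moves telomere attachment sites, and its cofactors, 6 were higher and 5 lower (46.2% and 38.5%, beside 27.4% and 36%). The heavy chain Dync1h1 had means of 36.4, 32.98 and 13.5 TPM and Pafah1b1 (Lis1) 118.2, 57.4 and 40.4, whereas the light chain Dynlrb1 had 456, 604 and 1092 TPM. Of 16 regulators of Cdk2, 5 were higher and 8 lower (31.25% and 50.0%, beside 27.4% and 36%), with a median log2 ratio of -0.54. Cyclin E2 (Ccne2) had means of 223, 79.5 and 19.3 TPM, a log2 ratio of -3.47, and Spdye4b, a relative of Spdya, 9.13, 6.57 and 0.814 TPM. The cluster 3 mean of Spdye4b rested on the only cell there with at least 1 TPM, at 26.6 TPM. The Cdk inhibitor Cdkn1b (p27) was at 3.18, 1.77 and 19.6 TPM and at 1 TPM or more in 31 of 33 cells of cluster 3. Its cluster 1 mean rested largely on the highest cell, at 41.2 TPM, so no direction is read from cluster 1 to 2. The medians were 0.0194, 0.0582 and 19.9 TPM.

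**Figure D5:**
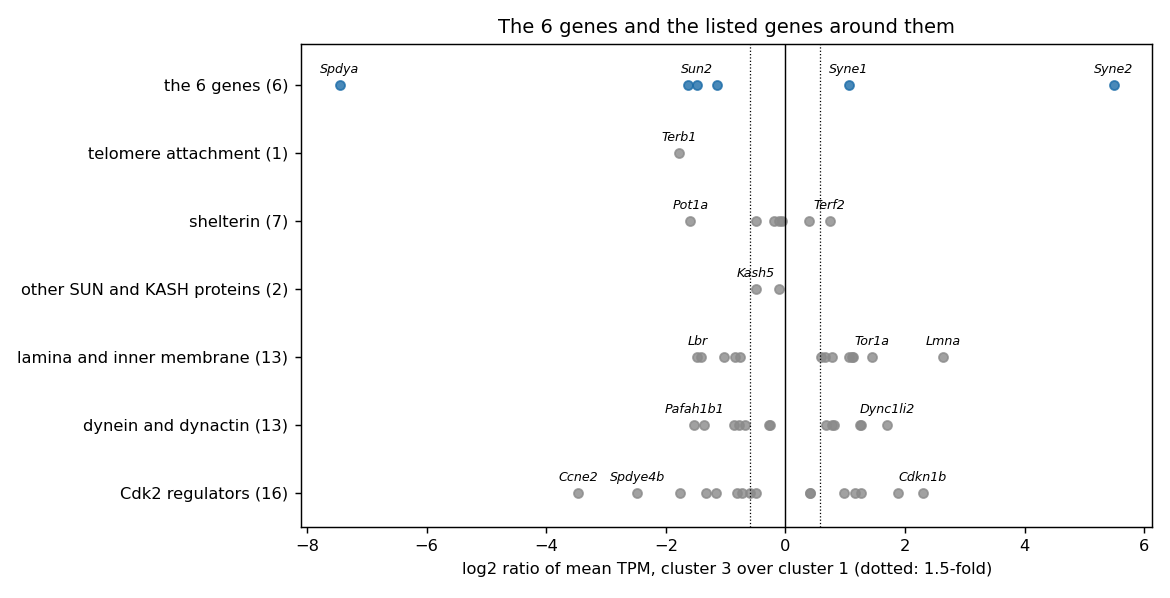
Log2 ratio of mean TPM, cluster 3 over cluster 1, for the 6 genes (top line) and the 52 listed genes compared, 1 point per gene, with the number of genes in brackets and dotted lines at 1.5-fold. Spdya at -7.45 and Syne2 at 5.49 lie outside the range of the listed genes, whose ends are Ccne2 at -3.47 and Lmna at 2.64.

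Genes with levels most like each of the 6 across the kept cells were ranked by Spearman's correlation among 10653 coding genes. For Spdya they were Ccnb3, a meiotic cyclin, at 0.61, then Prps1, Tktl1, Btbd10 and Taf9b down to 0.57. For Syne2 they were Tuba1c, an alpha-tubulin, at 0.69, then Cnpy1, Ptpn18, Hexdc and Zbed3 down to 0.65. Ptpn18 and Cnpy1 were also among the 5 nearest to Syne1, with Ptpn18 at 0.48. For Sun1 the nearest was Meioc, a regulator of meiotic prophase, at 0.47, for Cdk2 Maged1 at 0.57, and for Sun2, read from few cells, Rnf213 at 0.36 with the globin gene Hba-a1 next at 0.36. All of these share the same libraries and the same order of cells.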

How the data were processed

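Single oocytes picked from digested newborn mouse ovaries were profiled by Smart-seq2, 1 library per cell, with spike-in RNA of 92 kinds. The authors quantified each library with Salmon on mm10 transcripts, after FastQC, per the labels and the study's methods; the annotation release is not given in the sources used here. The deposited values are TPM per gene, which are comparable between genes per length, and estimated counts (expected counts, not whole), with a length and an effective length per gene that the authors' tool wrote. The deposited length was below the shortest annotated transcript for some genes (a median of 198 bases for Sun1, whose shortest transcript has 233), so transcript length was worked out as reads over TPM, scaled in each cell by spike-ins with at least 100 reads, a ratio that varied by at most 0.00094% within a cell. This choice was made after seeing the data.

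Cells with Ddx4 below 1 TPM were left out. Clusters were rebuilt with Seurat 5.3.0 in R 4.3.3 from 20 feature genes (10 components, 20 neighbours, the lowest resolution giving 3 clusters, 0.2). The study also used 20 marker genes, but its text does not name all of them, so the sets may differ. Clusters were numbered along component 1, with Sycp2 high at the start. The study's own filters on reads, mitochondrial share and spike-in share were not applied. The sizes of these groups differ from those of the study's own, and the cause was not tested. Groups were compared by the log2 ratio of mean TPM with a pseudocount of 1 TPM, over 11759 coding genes with a mean of at least 1 TPM (other values with pandas 2.3.3 and SciPy 1.17.1). All cells were 1 sample, so no p-value was computed. Named genes are the 6 genes, listed genes given by their role, feature genes where they describe a cluster, and for each of the 6 the 5 coding genes with the highest Spearman's correlation, among those at 0.1 TPM or more in at least 20% of the cells. The 6 genes and the lists were chosen with earlier results of these data known. The ratios, calls and clustering were run on simulated data with well-expressed genes, larger changes and clearly separated groups. That run does not show how they do near 1.5-fold, at low levels or in a gradual order of cells. Gene symbols were placed with GENCODE M21, and Terb1, Kash5 and Irag2 were matched through older symbols. Dynlt1b was matched only to a row of another symbol and left out of the counts. Libraries that correlated above 0.95 with another were taken as repeats and, as an alternative chosen after seeing the data, averaged and counted once. Other alternatives were other pseudocounts, CPM, spike-in scaling, other groupings of cells and leaving out single cells.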

Additional observations from a re-analysis of the deposited data

How the results depend on the processing

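For the 6 genes, 86 of 90 alternative values of the cluster 3 over 1 ratio kept their direction and their side of 1.5-fold, and 4 did not reach that line: Sun2 in CPM (-0.16), Sun2 as a difference of medians (0), Cdk2 per spike-in TPM (-0.51) and Syne1 without cell 53. Leaving out single cells gave 0.39 to 1.78 for Syne1, -2.60 to -0.60 for Sun2, -1.80 to -1.35 for Sun1, 5.30 to 6.54 for Syne2, -7.85 to -7.32 for Spdya and -1.31 to -1.05 for Cdk2. The number of listed genes lower in cluster 3 was 9 per spike-in TPM against 20, and the number higher 27 against 20. The median ratio of all coding genes moved as well, from -0.17 to 0.44. Their called share under that scaling is not given here, so the counts say little about the lists. Of 180 alternative values for the other cluster steps, 18 newly passed 1.5-fold and 13 no longer did, among them Spdya for 3 over 2 as a difference of medians (-0.28). A value was called reversed where it had the other sign and either the reported or the alternative value passed 1.5-fold, which was so for 5 values, and 11 more had the other sign with both below 1.5-fold (3 for Sun1 and 2 for Syne1 in cluster 3 over 2, and 6 for Sun2 in 2 over 1). The reversed values were Sun1 for cluster 3 over 2 per spike-in TPM (0.76) and as a difference of medians (0.83, an alternative chosen after seeing the data), Sun2 for 3 over 2 with clusters from variable genes (0.090), Syne1 for 3 over 2 without cell 53 (-0.61; from -0.61 to 0.19 over single cells) and Sun2 for 2 over 1 without cell 100 (0.85; from -1.06 to 0.85). The cause was not tested. Counting the repeat libraries once moved none of the 18 ratios across 1.5-fold, and turned the sign of 1 of them, Syne1 for 3 over 2 (-0.036). Sun2 was listed at 0 in 86 cells and Spdya in 61. No paired analysis was possible because the cells form 1 group with no shared replicate numbers.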
